A study of Drosophila melanogaster with 2 samples.

Results

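The cytosolic chaperonin CCT (also called TRiC) is a protein-folding machine built from 8 related subunits, encoded in the fly by the genes CCT1 to CCT8. All 8 genes were taken by their symbols, and all 8 were found among the 13968 protein-coding genes on the assembled chromosome arms of Drosophila melanogaster. Binding was profiled by chromatin immunoprecipitation and sequencing (ChIP-seq) with an antibody to GFP. The chromatin came from whole embryos, 0 to 24 h old, of the strain tna-GFP, which carries an insertion targeting tna and makes a tna-eGFP fusion protein. There was 1 group of 2 biological replicates, and the labels give neither the promoter that drives the fusion nor the number of embryos. A sample of untagged embryos was not analysed here, so no background from embryos without the fusion protein stands beside any value. With 1 group there is no comparison between conditions, and no test was made: counts are read beside the share of all protein-coding genes that meet the same rule. CCT1, CCT3 and CCT7 lie on 3R, CCT2 and CCT6 on X, CCT4 on 2L, and CCT5 and CCT8 on 2R.

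CCT stacks its subunits in a pair of rings, each subunit at a fixed place, and newly made actin and tubulin fold inside the cavity before they can build the cytoskeleton. Since each ring needs every subunit, the subunit genes are regarded as a housekeeping family made in step with each other. Prefoldin hands unfolded actin and tubulin to the rings, and phosducin-like proteins work with CCT on selected substrates. The tagged protein, Tonalli, carries an SP-RING domain as SUMO ligases do and is known in flies for genetic interactions with the Brahma chromatin remodeller. Many housekeeping promoters of the fly carry the DNA replication-related element (DRE), which the factor DREF binds, and the related string CGATA is bound by the boundary protein BEAF-32.

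The 200 bases before the start are shown for CCT7, CCT1 and CCT3, the members with a reproducible peak at the start. The same bases are shown for CCT2, the member without such a peak that came nearest to the threshold of the conservative list. They let the peaks be read against the strings that recur in this family. Each runs 5′ to 3′ on the strand of the gene and ends at the base before the annotated start, from the RefSeq sequence of Release 6 (dm6 coordinates). Capitals mark the DRE core ATCGAT and the string CGATA on either strand. The full DRE, TATCGATA, contains both the core and CGATA, so these strings overlap.
CCT7 (chr3R:8801364-8801563, plus strand): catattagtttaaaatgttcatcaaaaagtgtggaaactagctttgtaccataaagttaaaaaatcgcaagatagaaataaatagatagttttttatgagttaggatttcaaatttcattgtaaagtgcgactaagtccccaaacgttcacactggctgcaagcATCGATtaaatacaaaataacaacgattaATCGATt
CCT1 (chr3R:22491440-22491639, minus strand): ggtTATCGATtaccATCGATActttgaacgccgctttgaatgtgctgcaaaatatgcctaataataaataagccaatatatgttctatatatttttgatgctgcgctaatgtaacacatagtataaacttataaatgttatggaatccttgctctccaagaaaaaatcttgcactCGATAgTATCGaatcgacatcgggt
CCT3 (chr3R:16647405-16647604, plus strand): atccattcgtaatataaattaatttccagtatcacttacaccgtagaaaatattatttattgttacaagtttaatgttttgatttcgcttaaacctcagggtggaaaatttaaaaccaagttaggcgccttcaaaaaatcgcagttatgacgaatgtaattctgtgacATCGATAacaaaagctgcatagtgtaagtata
CCT2 (chrX:9089313-9089512, plus strand): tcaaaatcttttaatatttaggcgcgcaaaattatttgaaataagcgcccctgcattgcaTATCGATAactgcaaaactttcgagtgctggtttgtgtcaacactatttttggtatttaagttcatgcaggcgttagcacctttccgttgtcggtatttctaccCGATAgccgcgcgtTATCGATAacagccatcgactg

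Reproducible peaks marked the starts of 3 of the 8 subunit genes, CCT1, CCT3 and CCT7, and left CCT2, CCT4, CCT5, CCT6 and CCT8 unmarked. A gene is called marked here when the summit of a peak in the conservative list lies within 500 bp of any of its annotated starts. That list holds 2580 peaks found in both replicates at an irreproducible discovery rate (IDR, the expected share of non-repeating peaks among those ranked as high or higher) of at most 0.01. Over all protein-coding genes 2541 of 13968 were marked, which is 18.2%. The members' share of 37.5% rests on 8 genes, with an exact (Clopper-Pearson) 95% interval of 8.52% to 75.5%. The interval covers counting error only and treats the genes as independent draws, though they are the whole family. It shows how little 8 genes can fix a share and is no test against the background. The same 3 genes had a summit in the list of replicate 1 alone, where 16.4% of genes did, and in the list of replicate 2 alone, where 17.7% did. They also had one in the second list that combines the replicates, against 22.2% of genes. All 3 met the rule in the conservative list and in each replicate's list, as did 1668 genes or 11.9% of the background.

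CCT7 had the strongest start peak of the family. Its conservative peak at 3R 8801400 to 8801620 had a signal of 366, the peak caller's own value as deposited, and ranked 299th of 2580. The summit lay 54 bp upstream of the only annotated start. In replicate 1 the signal was 206, ranked 287th of 2217, with the summit 67 bp upstream, and in replicate 2 it was 171, ranked 312th of 2669, with the summit 32 bp upstream. Both replicates thus placed this peak in about the same part of their lists, the top 12.9% and the top 11.7%. Replicate 1 listed a second, far weaker peak 135 bp inside the gene, with a signal of 6.23 and a deposited q-value of 0.893.

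CCT1 had a peak that was strong in 1 replicate and moderate in the other. At 3R 22491437 to 22491614 the conservative peak had a signal of 246, ranked 702nd, with its summit 68 bp upstream of the start. The signal was 196 in replicate 1, ranked 328th of 2217, and 77.2 in replicate 2, ranked 1807th of 2669. This put it in the top 14.8% of the first list but only the top 67.7% of the second, where its q-value was 0.0543. The position repeated better than the rank, at 51 bp upstream in replicate 1 and 70 bp upstream in replicate 2.

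CCT3 carried the weakest of the 3 peaks in the conservative list and in replicate 1, just downstream of its start, while in replicate 2 CCT1 ranked below it. The conservative peak at 3R 16647448 to 16647857 had a signal of 155, ranked 1460th, with the summit 48 bp inside the gene. Its signal was 82.7 in replicate 1, ranked 1376th, and 80.3 in replicate 2, ranked 1707th, with summits 60 and 82 bp inside the gene. The peaks of CCT7 and CCT1 were 221 and 178 bp wide, while that of CCT3 had the list's median width of 410 bp. The IDR of the pair was 3.53e-05 at CCT7, 0.000698 at CCT1 and 0.00185 at CCT3. For each of the 3 summits the CCT start was the nearest protein-coding start.

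**Figure D1:**
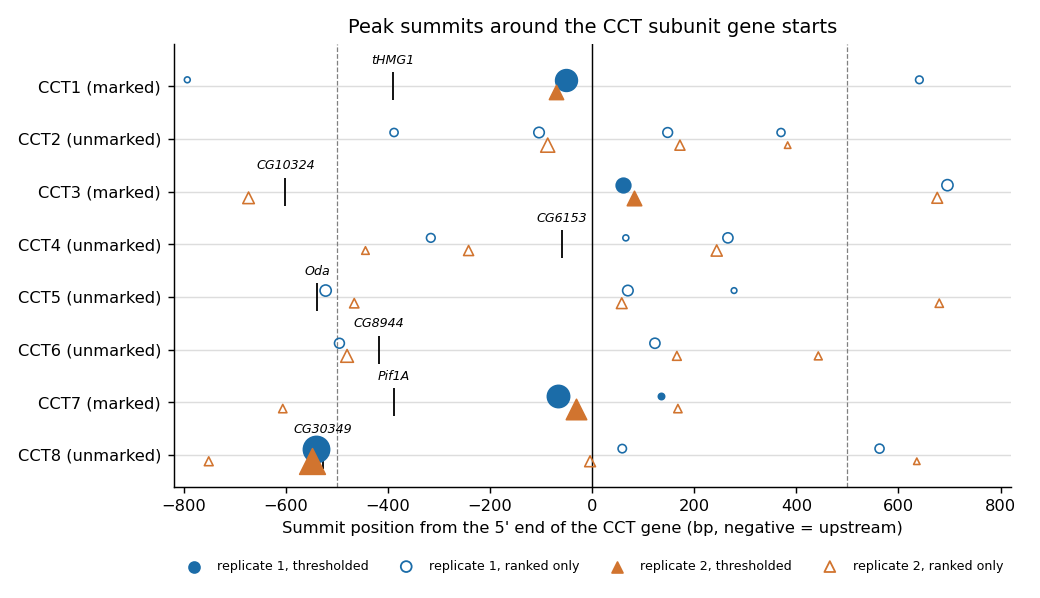
Each row is a CCT gene; the x axis gives the summit position in bp from its 5′ end, circles are replicate 1, triangles replicate 2, filled symbols are in the thresholded lists, open ones only in the ranked lists, and symbol area grows with signal. Black ticks mark facing starts, dashed lines the 500 bp limit, and filled symbols within the limit appear at CCT1, CCT3 and CCT7, while those in the CCT8 row lie outside it, at CG30349.

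The 5 unmarked genes had ranked summits within 500 bp of their starts, all above the IDR threshold of the conservative list. The ranked lists hold weak peaks too: 76.4% of all protein-coding genes had such a summit in the ranked list behind the conservative one. The strongest ones at the unmarked members had signals from 55.3 to 116 and IDRs from 0.0184 to 0.457.

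In the ranked list behind the conservative one, CCT2 came nearest to the threshold. Its strongest ranked summit lay 104 bp upstream of the start, with a signal of 116 and an IDR of 0.0184, against 0.00185 for CCT3, the marked member nearest to the threshold. In replicate 2 the signal was 75.8, in the top 15.6% of genes, with an IDR of 0.0285. In replicate 1 it was 37.0, in the top 30.7% of genes, with an IDR of 0.620. At its strongest summit replicate 2 gave CCT2 almost the same signal as it gave the marked CCT1, 77.2. In each replicate's own list the strongest summit of CCT6 had a lower IDR than that of CCT2. It was 0.0189 in replicate 2 and 0.527 in replicate 1, where CCT8 had the lowest of the unmarked genes, 0.21.

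CCT6, CCT4 and CCT5 followed, with IDRs of 0.0661, 0.0725 and 0.0796. At CCT6 the strongest summit lay 458 bp upstream, with a signal of 84.9, and only 41 bp from the start of the facing gene CG8944. In replicate 1 the strongest summit of CCT6 instead lay 123 bp inside the gene, with a signal of 33.7 against 31.3 at the upstream one. At CCT5, the only member with 2 annotated starts, 294 bp apart, the summit lay 107 bp downstream of the first, with a signal of 80.1. Replicate 1 gave 37.1 there and replicate 2 gave 38.9.

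In the ranked list behind the conservative one, the strongest summits of CCT4 and CCT8 within 500 bp had the lowest signals. In replicate 2 the strongest summit of CCT5 was lower than both, at 38.9. CCT4 had a signal of 59.9 at 239 bp inside the gene and an IDR of 0.0725, with 33.6 in replicate 1 and 43.3 in replicate 2. CCT8 had 55.3 at 124 bp inside the gene and an IDR of 0.457, with 19.5 in replicate 1 and 40.3 in replicate 2. A strong peak lay close to CCT8 all the same. It had a signal of 568, ranked 92nd of 2580 in the conservative list, at 2R 8907388 to 8907660. Its summit was 1 bp from the start of CG30349, which is transcribed away from CCT8, and 529 bp from the start of CCT8, just outside the limit of 500 bp. Replicate 1 gave this peak a signal of 290, at 541 bp from the CCT8 start, and replicate 2 gave it 278, at 549 bp.

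When each gene was given its strongest ranked summit within 500 bp, the marked and unmarked members separated clearly in replicate 1 and barely in replicate 2. In replicate 1 the marked genes had signals of 206 (CCT7), 196 (CCT1) and 82.7 (CCT3). The unmarked genes reached at most 37.1, at CCT5, followed by 37.0 at CCT2, 33.7 at CCT6, 33.6 at CCT4 and 19.5 at CCT8. In replicate 2 the order was CCT7 (171), CCT3 (80.3), CCT1 (77.2), CCT2 (75.8), CCT6 (60.0), CCT4 (43.3), CCT8 (40.3) and CCT5 (38.9). Among the unmarked genes CCT2, CCT6, CCT4 and CCT8 kept this order in both replicates, while CCT5 was first in replicate 1 and last in replicate 2. The place of CCT6 rests on different summits, 123 bp inside the gene in replicate 1 and 480 bp upstream in replicate 2. Its upstream summit had a signal of 31.3 in replicate 1, below the 33.6 of CCT4. The groups did not overlap in either replicate, a separation that the choice of marked genes from the same libraries sets in large part.

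Set against all genes, the family as a whole sat above the middle. The median of the strongest signal over all 13968 genes, with genes lacking a summit at 0, was 24.3 in replicate 1 and 32.9 in replicate 2. The members' median was 37.0 in replicate 1, with 7 of 8 above the gene median, and 67.9 in replicate 2, with 8 of 8 above it. CCT8 in replicate 1 was the exception, at 19.5. In the ranked list behind the conservative one CCT7 stood in the top 2.73% of genes, CCT1 in the top 6.59%, CCT3 in the top 13.2% and CCT2 in the top 18.7%. The others stood between the top 28.5% (CCT6) and the top 47.0% (CCT8).

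**Figure D2:**
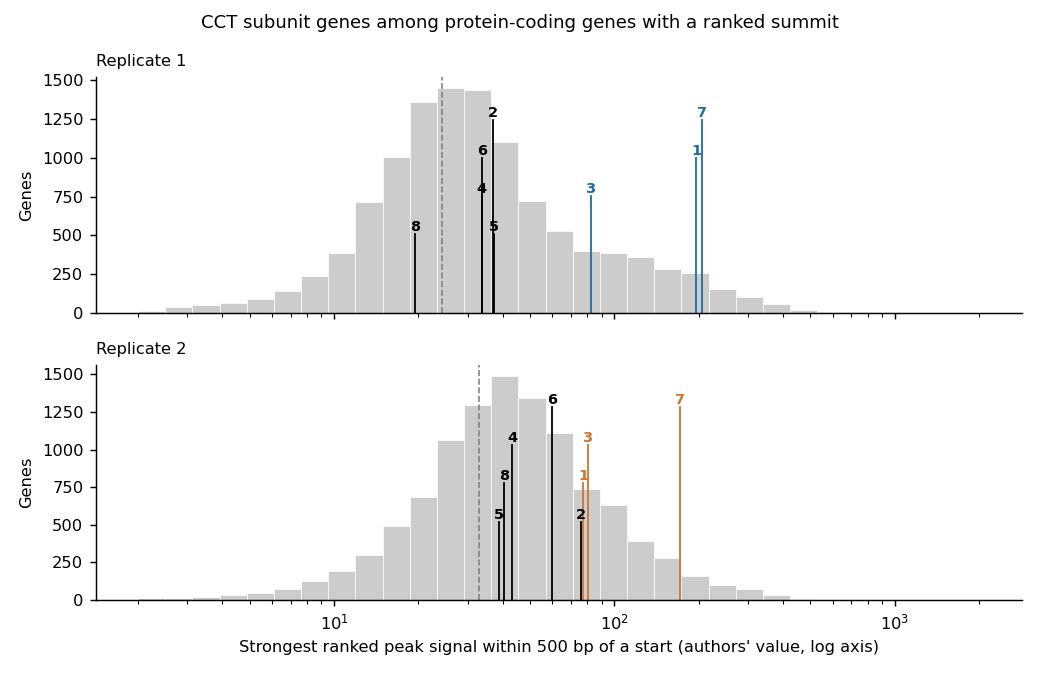
Grey bars count protein-coding genes by their strongest ranked signal within 500 bp of a start (log x axis, authors' value) for replicate 1 above and replicate 2 below; numbered lines are CCT1 to CCT8, coloured where marked, and the dashed line is the median over all genes. Marked members lie at 82.7 to 206 in replicate 1 and at 77.2 to 171 in replicate 2, with CCT2 at 75.8 next to them in replicate 2.

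Divergent neighbours were found at marked and unmarked members alike. Of the 8 genes 7 had as nearest protein-coding neighbour a gene read in the opposite direction from a start within 1000 bp, an arrangement found at 33.1% of all genes. These were all 3 marked genes and 4 of the 5 unmarked ones, and of all genes so arranged 30.2% were marked. The exception was CCT2, whose nearest other start, of CG6999, lay 1146 bp away on the same strand. The distances were 388 bp for CCT7 and Pif1A, which shares that start with Pif1B, 390 bp for CCT1 and tHMG1, and 601 bp for CCT3 and CG10324. Among unmarked genes they were 59 bp for CCT4 and CG6153, 417 bp for CCT6 and CG8944, 528 bp for CCT8 and CG30349, and 538 bp for CCT5 and Oda, which encodes ornithine decarboxylase antizyme. Because the limit is 500 bp, the CCT1 peak also counted for tHMG1 and the CCT7 peak for Pif1A, at 322 and 334 bp from those starts.

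The side of the divergent pair that held the stronger summit differed between members. The values within 150 bp of each start, a distance chosen after the values were seen, show this for the 6 pairs whose windows do not overlap. At the marked CCT1 and CCT7 no ranked summit lay within 150 bp of the facing start in either replicate. At CCT3 the facing start of CG10324 had none in replicate 1 and a signal of 47.3 in replicate 2, against 82.7 and 80.3 at CCT3. At CCT8 the order was turned, with 290 at CG30349 against 19.5 at CCT8 in replicate 1 and 278 against 40.3 in replicate 2. CCT6 had 33.7 against 31.3 at CG8944 in replicate 1 and no summit against 60.0 in replicate 2. CCT5 had 37.1 against 43.7 at the facing start of Oda in replicate 1 and 38.9 against 27.1 in replicate 2, so the replicates disagreed on the side. A strong peak counted for Oda, with a signal of 426, lay at another of its starts, 6171 bp from CCT5.

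**Figure D3:**
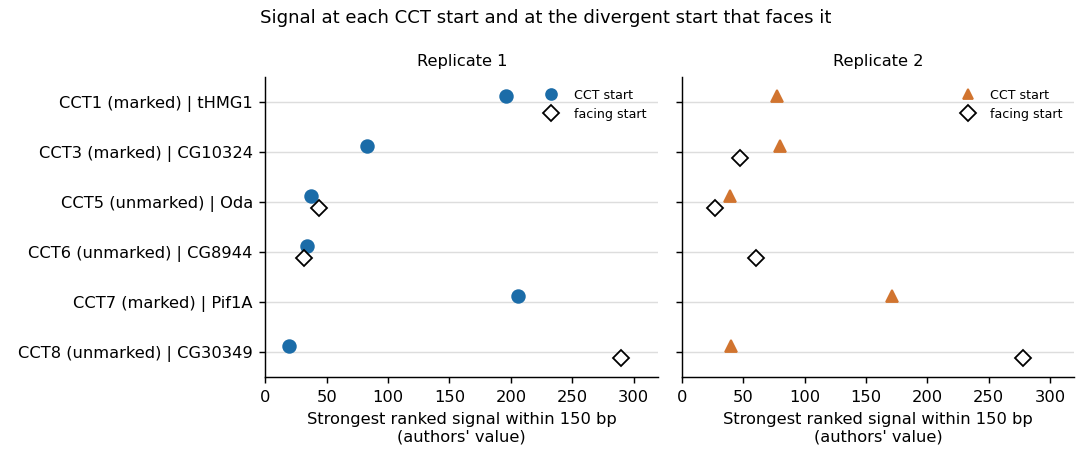
Each row is a divergent pair; the x axis gives the strongest ranked signal within 150 bp of the CCT start (filled) and of the facing start (open diamond) in each replicate, and a missing symbol means that no ranked summit was listed. CCT1 and CCT7 have a symbol only at their own start, while CG30349, at 290 and 278, exceeds CCT8.

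All 8 promoters held the DRE core ATCGAT, whether a peak was called or not. The window ran from 250 bases before the 5′ end to 50 after it, and the string was found in 23.3% of the windows of all protein-coding genes, in 59.7% of marked and 15.2% of unmarked ones. CGATA was also found in all 8, against 47.3% of all windows, 80.1% of marked and 40% of unmarked ones. The place of a string is given by its first base, counted from the 5′ end of the gene with negative values upstream. A core lay between -42 and -32 in CCT3, CCT5, CCT6, CCT7 and CCT8, and at -21 in CCT2. CCT1 had its cores farther upstream, at -196 and -186. CCT2 (-139), CCT3 (13) and CCT7 (-238 and -7) held further copies.

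The full 8-letter DRE occurred in 2 members, CCT2 and CCT5, and both are unmarked. CCT2 carried it at -140 and at -22, within the capitals of its sequence printed above, and CCT5 at -35. Of all marked genes 31.0% had the full DRE and of all unmarked genes 4.55%, so CCT1, CCT3 and CCT7 belong to the marked promoters with a core but not the whole element. Motif 1 (GGTCACAC, the string bound by M1BP) also occurred in 2 unmarked members and in no marked one, and in CCT6 it lay at 4. Of all windows 7.69% had Motif 1, with 10% of marked and 7.17% of unmarked ones. With 8 genes these counts are descriptions, and a string absent from a window says nothing of the factor.

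The other strings were scattered. CAGCTG, a core promoter element of housekeeping genes, was found in CCT5 and CCT7 (17.6% of all windows), and the GAGA string GAGAG in 3 members, CCT1 and CCT3 among them (29.7%). The TATA string TATAAA was found in CCT1, CCT3 and CCT5 (45.8%), and TCAGT, the Initiator string, in CCT5 and CCT8 (51.5%). Near the peaks themselves, the centre of the CCT7 core at -36 lay 20.5 bp from the conservative summit, and at CCT3 that of the copy inside the gene lay 33.5 bp from it. At CCT1 the nearest core lay 116 bp from the summit, the nearest CGATA 45 bp and the nearest TATAAA 0.5 bp. GAGAG lay 21 bp from the summit at CCT1 and 22 bp at CCT3. A core close to the summit was not limited to marked genes. At the unmarked CCT2 the nearest core lay 32.5 bp from the strongest ranked summit of both replicates. The distance was 138 bp at CCT5, 160 bp at CCT8 and 418 bp at CCT6.

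**Figure D4:**
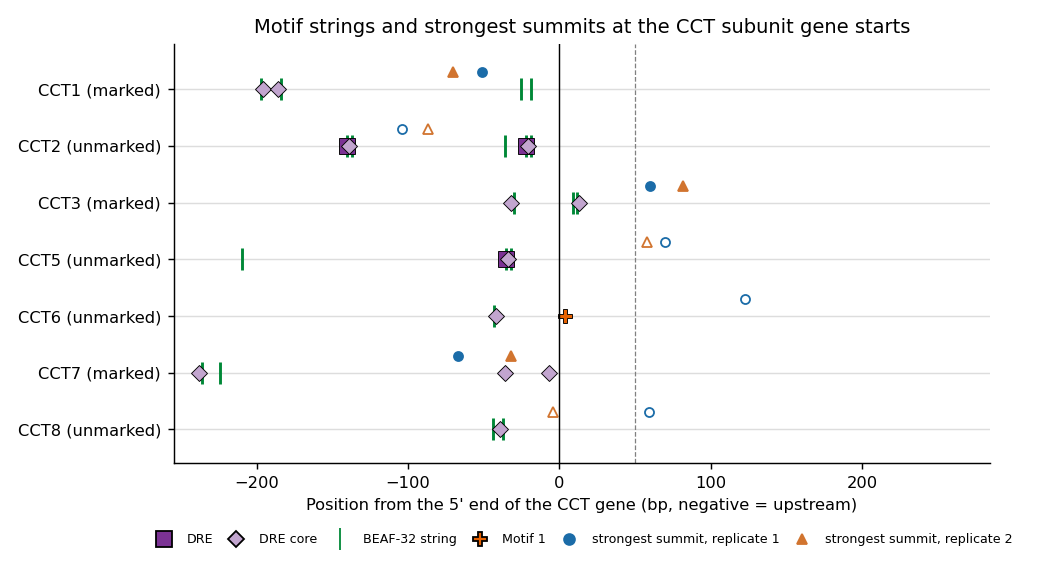
Each row is a CCT gene, CCT4 left out; the x axis gives positions in bp from its 5′ end, squares mark the first base of the full DRE, diamonds its core, green bars the BEAF-32 string, orange crosses Motif 1, and circles and triangles above the row the strongest summits of replicates 1 and 2, filled at marked genes (the dashed line at 50 ends the searched window, and the replicate 2 summit of CCT6 at -480 is off the axis). Diamonds appear in every row drawn and squares only at CCT2 and CCT5.

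The arm, the number of starts and the place in the ring were set beside the marks. All 3 marked genes lie on 3R and none of the other 5 does, while 18.3% of the genes on 3R were marked. Of the members 7 have a single annotated start, CCT5 being the exception, as do 73.5% of all protein-coding genes. All 3 marked and 4 of the 5 unmarked members share this property, and of all genes with 1 start 15.2% were marked. No other thresholded summit lay in the body of any member apart from those described at CCT3 and CCT7. From yeast it is known that CCT1, CCT2, CCT4 and CCT5 bind ATP more tightly than the other subunits. Of that side of the ring 1 of 4 genes was marked, CCT1, and of the other side 2 of 4, against 18.2% of all genes.

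The genes that work next to CCT were marked at 4 of 6 for prefoldin and 2 of 3 for the phosducin-like proteins, against 18.2% of all genes. Among prefoldin subunits Pfdn1 reached 324 (replicate 1, 159; replicate 2, 164) and Pfdn5 reached 305 (166 and 145), each with its summit 19 bp upstream of the start. The peaks counted for mgr (197) and Pfdn6 (197) lay nearer the starts of Irbp, which encodes a Ku subunit of DNA repair, and Su(z)12, a Polycomb repressive complex gene. The mgr start had no thresholded summit in replicate 2, where its strongest ranked signal was 51.2. Pfdn2 and Pfdn4 were unmarked, with ranked signals of 54.4 and 94.3. Pfdn5 is also a neighbour of CCT1: their 5′ ends are 4400 bp apart on 3R, and both were marked. Of the phosducin-like genes viaf had 301 (177 and 139) and CG7650 had 192 (110 and 121), while CG4511 was unmarked at an IDR of 0.0121 with a ranked signal of 102.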

How the data were processed

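The data are peak lists from 2 biological replicates of tna-eGFP embryos. Chromatin was sonicated to between 200 and 800 bp, per the labels. The authors deposited a thresholded and a ranked list in dm6 coordinates for each replicate, and 2 of each kind from both. Per the deposited notes every list also derives from a further input file. The deposited signal of a peak was ranked only within a list, since no common scale is stated, and each replicate's value is given by itself. By their format, the deposited −log10 columns hold the q-value and, in ranked lists, the score of the global IDR. For the aligner and the peak caller, names and versions were not found in the labels or notes. Without read counts the depth is unknown.

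Each summit was set against all annotated starts of Ensembl release 115 on 7 arms. Strings were searched on both strands of the RefSeq Release 6 sequence; string positions at CCT4 are not reported here. Python 3.11.15 and scipy 1.17.1 were used, and the summit rule was tested on simulated data. The members and gene lists were chosen with earlier results of these data known. Named were all members, their nearest neighbours, every prefoldin and phosducin-like gene and the marked genes of the other lists. Genes outside this rule (Act5C, betaTub56D, CG11267, Hsp60B, Hsp60C and Hsp60D) were chosen after their values were seen. Alternatives covered other lists, windows, thresholds and starts, and RefSeq starts were added after seeing the data.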

Additional observations from a re-analysis of the deposited data

How the results depend on the processing

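CCT1, CCT3 and CCT7 were marked under 11 of the 12 alternatives. At an IDR of at most 0.001 CCT3 was lost and 2 members remained, while 1320 genes of the background were marked (9.45%). CCT2 was added at an IDR of at most 0.05 and CCT8 with a window of 1000 bp, each making 4, where 25.7% and 20.5% of all genes were marked. Prefoldin had 2 marked genes in place of 4 at an IDR of at most 0.001 and when a summit counted only for the nearest start. Under the latter rule 13.9% of all genes were marked. Prefoldin had 3 without replicate 1, within 250 bp and where the peak interval covered a start. Of all genes 17.7%, 15.9% and 14.5% were marked under these settings. Marked mitochondrial chaperonin genes were 2 in place of 1 in the other list from both replicates, at 1000 bp and at an IDR of at most 0.05, where 1 actin gene was marked in place of 0. Tubulin genes were 2 at 1000 bp and 0 at an IDR of at most 0.001. Leaving out a replicate, so that the other's own list was used, gave 3 CCT genes either way and 1 to 2 tubulin genes. In the single lists the place was the top 14.8% to 67.7% for CCT1, 62.1% to 64.0% for CCT3 and 11.7% to 12.9% for CCT7, and in the other list from both 43.2% for CCT3 and 8.54% for CCT7. With 100 bases before the start, CAGCTG was found in 0 members, TATAAA in 1, CGATA in 7 and the DRE core in 7, since CCT1 lost its copies of the core. With 500 bases TCAGT was found in 5. These windows differ in length from the main one, and no share over all promoters is given for them, so the counts are descriptions. The cause of these shifts was not tested. No paired analysis was possible because there is 1 group. The depth is unknown, and it limits what a weak or unmarked start can show.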

Other observations

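The genes of the substrates that CCT folds were also counted in the conservative list. These groups are small, so their counts are descriptions. None of the 6 actin genes was marked, against 18.2% of all protein-coding genes. The highest ranked signal among them was 102 at Act5C, a cytoplasmic actin gene, 44 bp inside the gene and at an IDR of 0.0320. Its signal was 41.2 in replicate 1 and 46.1 in replicate 2. Of 10 tubulin genes 1 was marked, alphaTub84B, with a signal of 203 and its summit 83 bp inside the gene. Its rank differed between the lists, at 1872nd of 2217 in replicate 1 (signal 60.2) and 429th of 2669 in replicate 2 (signal 152). betaTub56D had a thresholded summit in replicate 2 alone, with a signal of 73.2. The actin and alpha-tubulin genes are similar in their coding sequence, and how reads that fit several places were handled is not given in the sources used here.

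Of the 5 mitochondrial chaperonin genes matched, 1 was marked, a share near the 18.2% of all protein-coding genes. Hsp60A, which encodes the mitochondrial relative of CCT, had a signal of 260 with its summit 102 bp upstream, and 151 and 104 in replicates 1 and 2. Its partner CG11267, the Hsp10 gene, had a ranked signal of 99.8 at an IDR of 0.0164. Hsp60B and Hsp60D had ranked signals of 23.0 and 43.2, and Hsp60C had no ranked summit within 500 bp.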
